A study of Saccharomyces cerevisiae with 13 samples.

Results

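A set of 32 proteasome subunit genes was followed across every treatment of a budding yeast array study. UMP1, whose product helps the core particle mature, and RPN4, the transcription factor gene that drives proteasome gene expression, were followed with them. The members were set as a list of gene names, and all 34 matched a single probe set each among 5449 named genes. Expression was measured on 13 one-colour Affymetrix arrays of Saccharomyces cerevisiae BY4741, a haploid laboratory strain with deletions at HIS3, LEU2, MET17 and URA3, grown at 30 °C in the rich medium YPD to mid-log phase and treated for 30 min. DMSO alone served as the solvent control on 3 arrays. Rapamycin (100 nM), SMER1 (20 µM) and both agents together at those doses were measured on 2 arrays per treatment, and each of the other compounds, SMER2 to SMER5, on 1 array at 20 µM. Rapamycin inhibits TOR complex 1, the kinase that couples growth to nutrients, and SMERs are small molecule enhancers of rapamycin known here by their code names. All groups share strain, medium and treatment time, and the labels do not say whether replicates were separate cultures, so that p-values measure only the spread between these arrays, which may be technical.

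The proteasome degrades proteins tagged with ubiquitin chains. Its core particle is a barrel of alpha and beta rings with the cutting sites inside, and its regulatory particle caps the barrel with a base, which holds a ring of ATPases that unfold the substrate, and a lid, which removes the ubiquitin chain. Rpn4 binds a shared element in the promoters of the subunit genes, and the Rpn4 protein is itself a short-lived substrate of the proteasome. RPN4 transcription in turn is known to respond to Pdr1, Pdr3, Yap1 and Hsf1.

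The deposited values are log2 signals, called log2 levels below, and a log2 difference is one group's mean minus another's. Levels of different genes are not set against each other, because probe sets differ in brightness. A gene was called when limma's moderated test over all 5449 genes gave a Benjamini-Hochberg adjusted p under 0.05, two-sided. The members were bright, with a mean over all arrays between the 69.1 percentile of all genes (RPN4) and the 94.1 percentile (RPN1). The 90th percentile of all genes on an array lay between 12.78 and 12.92 on the DMSO arrays, 13.15 and 13.16 with rapamycin, 13.09 and 13.12 with SMER1, 13.05 and 13.07 with the combination, and 12.81 to 12.92 on the 4 other arrays. That bright end moved with the treatments, and quantile normalisation, which forces all arrays to 1 distribution, is therefore given beside the results it changes. Of the genes altered in BY4741, URA3 read 1.97 to 4.55, MET17 4.05 to 5.78 and LEU2 6.29 to 8.61 over the arrays, while HIS3 read 12.14 to 13.18. Each array holds RNA of a whole culture, so that a shift in some cells and a smaller shift in all cells cannot be told apart.

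RPN4 stood apart from the genes its product controls. RPN4 (YDL020C) was 4.25-fold higher on the SMER3 array than with DMSO, and on the other arrays it lay at most 0.21 on the log2 scale above the DMSO mean. Its log2 level was 11.44, 11.48 and 11.56 on the DMSO arrays and 13.58 on the SMER3 array. It was 11.35 and 11.33 with rapamycin, 11.62 and 11.65 with SMER1, and 11.58 and 11.70 with the combination. SMER2 gave 11.47, SMER4 11.55 and SMER5 11.59. The SMER3 array is therefore far above all 12 other arrays, and both rapamycin arrays are below them.

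RPN4 rose by a log2 difference of 2.09 ± 0.09 (SE) with SMER3 against DMSO (limma adjusted p = 6.58e-06), and by 1.94 ± 0.09 against SMER1 (limma adjusted p = 2.06e-05). The lone SMER3 array has no replicate check and is assumed to vary like the replicated groups. Under the 15 alternative settings tried, the RPN4 difference between SMER3 and DMSO stayed between 2.06 and 2.15.

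RPN4 did not pass the test against DMSO with rapamycin (-0.15 ± 0.07, limma adjusted p = 0.0912), with SMER1 (0.15 ± 0.07, 0.101) or with the combination (0.15 ± 0.07, 0.0859). It did differ between rapamycin and the other replicated treatments. RPN4 was higher with the combination than with rapamycin by 0.30 ± 0.07 (limma adjusted p = 0.0143), and higher with SMER1 than with rapamycin by 0.30 ± 0.07 (limma adjusted p = 0.0186). Those calls were lost in 3 and 5 of the 15 alternative settings. After quantile normalisation RPN4 was called lower with rapamycin than with DMSO, at -0.20, while its adjusted p over all alternatives ran from 0.0307 to 0.242.

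**Figure D1:**
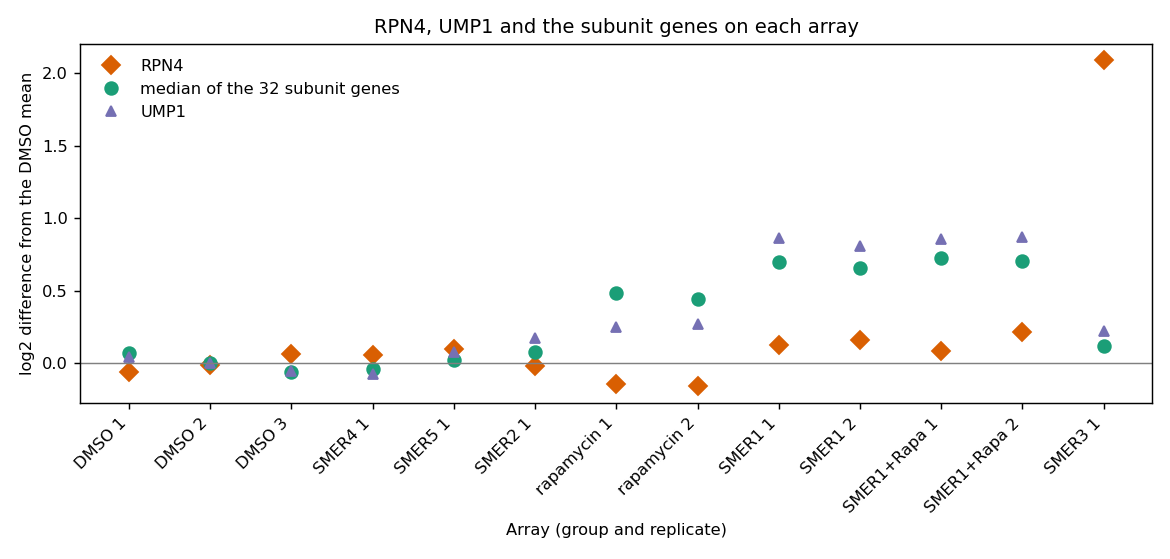
Log2 difference from the DMSO mean on each of the 13 arrays (vertical axis) for RPN4, UMP1 and the median of the 32 subunit genes. RPN4 lies at 2.09 on the SMER3 array, where the subunit median is 0.12, while the subunit median is 0.66 and 0.70 on the SMER1 arrays, where RPN4 is 0.16 and 0.13.

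With rapamycin alone, 31 of the 32 subunit genes and UMP1 were called higher than with DMSO, where 39.7% of all genes were called higher and 20.4% lower. The median log2 difference of the subunits was 0.46, against 0.16 over all genes. The core particle genes had a median of 0.53, the base genes 0.44 and the lid genes 0.40, and no member was called lower.

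Among the alpha ring genes, PRE8 (YML092C) had the largest log2 difference of all subunits. Its log2 level was 12.60, 12.62 and 12.55 with DMSO and 13.29 and 13.33 with rapamycin, a difference of 0.72 ± 0.06 (limma adjusted p = 4.32e-05). SCL1, also of the alpha ring, differed by 0.65 ± 0.06, and PRE5 was the lowest of that ring at 0.39 ± 0.07. Rapamycin and DMSO arrays did not overlap for any of the 34 genes, nor for 72.6% of all genes.

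The beta ring carries the cutting sites. PRE3, which encodes the caspase-like site, read 12.91, 12.75 and 12.62 with DMSO and 13.52 and 13.44 with rapamycin, a log2 difference of 0.72 ± 0.09 (limma adjusted p = 0.000412). PUP1, which encodes the trypsin-like site, rose by 0.66 ± 0.06. PRE2, which encodes the chymotrypsin-like site, rose least of the beta ring, by 0.34 ± 0.08.

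Of the base genes, all 10 were called, from the ATPase gene RPT4 (0.26 ± 0.09, limma adjusted p = 0.0368) to the ATPase gene RPT1 (0.65 ± 0.09). RPN10 and RPN13, which encode ubiquitin receptors, rose by 0.56 ± 0.07 and 0.43 ± 0.07. The scaffold genes RPN1 and RPN2 rose by 0.38 ± 0.06 and 0.36 ± 0.13.

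The lid held the smallest differences as well as some large ones. RPN3, a structural subunit gene, read 12.32, 12.36 and 12.39 with DMSO and 12.59 and 12.46 with rapamycin, a log2 difference of 0.17 ± 0.06 that missed the threshold (limma adjusted p = 0.0526). RPN8, which encodes the partner of the deubiquitinase, and RPN11, which encodes the deubiquitinase itself, rose by 0.23 ± 0.06 and 0.28 ± 0.06. RPN7 and RPN12, further structural subunit genes, rose by 0.60 ± 0.06 and 0.54 ± 0.06. UMP1 (YBR173C) rose by 0.26 ± 0.06 (limma adjusted p = 0.00622).

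Many of these rapamycin calls depended on the scale. After quantile normalisation, 17 subunit genes were called higher, where 31.7% of all genes were, and 1 member, RPN4, was called lower, where 27.3% of all genes were. The subunit median was then 0.17 against 0.03 over all genes, UMP1 (0.11) was no longer called, and RPN8 (-0.06), RPN3 (-0.04) and RPT4 (-0.01) had a negative sign. Over all genes the split of calls moved from 2165 higher and 1111 lower to 1730 higher and 1489 lower. In all 15 alternative settings, 17 members remained called: 10 of the core, 4 of the base and 3 of the lid.

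With SMER1 alone, every subunit gene rose. All 32 subunit genes and UMP1 were called higher than with DMSO, where 36.5% of all genes were, and no member was called lower, where 25% of all genes were. The median log2 difference of the subunits was 0.68, against 0.09 over all genes, with 0.69 for the core, 0.65 for the base and 0.69 for the lid. The comparison uses the DMSO arrays that the rapamycin comparison also uses.

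PRE8 was again at the top. Its log2 level was 13.50 and 13.53 with SMER1, above all 3 DMSO arrays, a log2 difference of 0.93 ± 0.06 or 1.90-fold (limma adjusted p = 1.31e-05). The beta ring genes PRE3 and PRE1 followed at 0.90 ± 0.09 and 0.83 ± 0.06. PUP1, among the highest with rapamycin, was among the lowest with SMER1: it read 12.41, 12.47 and 12.48 with DMSO and 12.97 and 12.96 with SMER1, a log2 difference of 0.51 ± 0.06.

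In the regulatory particle the log2 differences with SMER1 ran from 0.51 ± 0.06 for RPN3 to 0.76 ± 0.11 for RPN6, a lid subunit gene. RPN11 read 12.10, 12.13 and 12.20 with DMSO and 12.84 and 12.81 with SMER1, a difference of 0.68 ± 0.06 (limma adjusted p = 6.08e-05). RPN13 read 12.72, 12.59 and 12.61 with DMSO and 13.40 and 13.30 with SMER1, a difference of 0.71 ± 0.07. RPT4 was the lowest ATPase gene at 0.52 ± 0.09.

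UMP1 read 12.15, 12.11 and 12.05 with DMSO and 12.96 and 12.91 with SMER1, a log2 difference of 0.83 ± 0.06 (limma adjusted p = 1.89e-05). The 33 calls were kept in all 15 alternative settings. After quantile normalisation the same 33 were called higher, where 31.3% of all genes were, the subunit median was 0.42 against -0.04 over all genes, and the split of all calls moved from 1990 higher and 1362 lower to 1706 higher and 1840 lower.

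The combination of SMER1 and rapamycin gave almost the same counts. All 32 subunit genes and UMP1 were called higher than with DMSO, where 39.6% of all genes were, and no member was called lower, where 31.2% of all genes were. The median log2 difference of the subunits was 0.71, against 0.09 over all genes, with 0.77 for the core, 0.67 for the base and 0.76 for the lid. All 33 calls were kept in all 15 alternative settings, and the subunit median was 0.50 after quantile normalisation, when 36.6% of all genes were called higher.

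PRE3 reached 13.79 and 13.71 with the combination, a log2 difference of 0.99 ± 0.09 from DMSO or 1.98-fold (limma adjusted p = 4.39e-05). PRE8 read 13.61 and 13.53, a difference of 0.98 ± 0.06. In the lid, RPN11 was the highest at 0.83 ± 0.06, with 12.99 and 12.96 on the combination arrays. RPT4 had the smallest difference among the subunits, 0.42 ± 0.09 (limma adjusted p = 0.00327). UMP1 read 12.96 and 12.97, a difference of 0.86 ± 0.06.

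**Figure D2:**
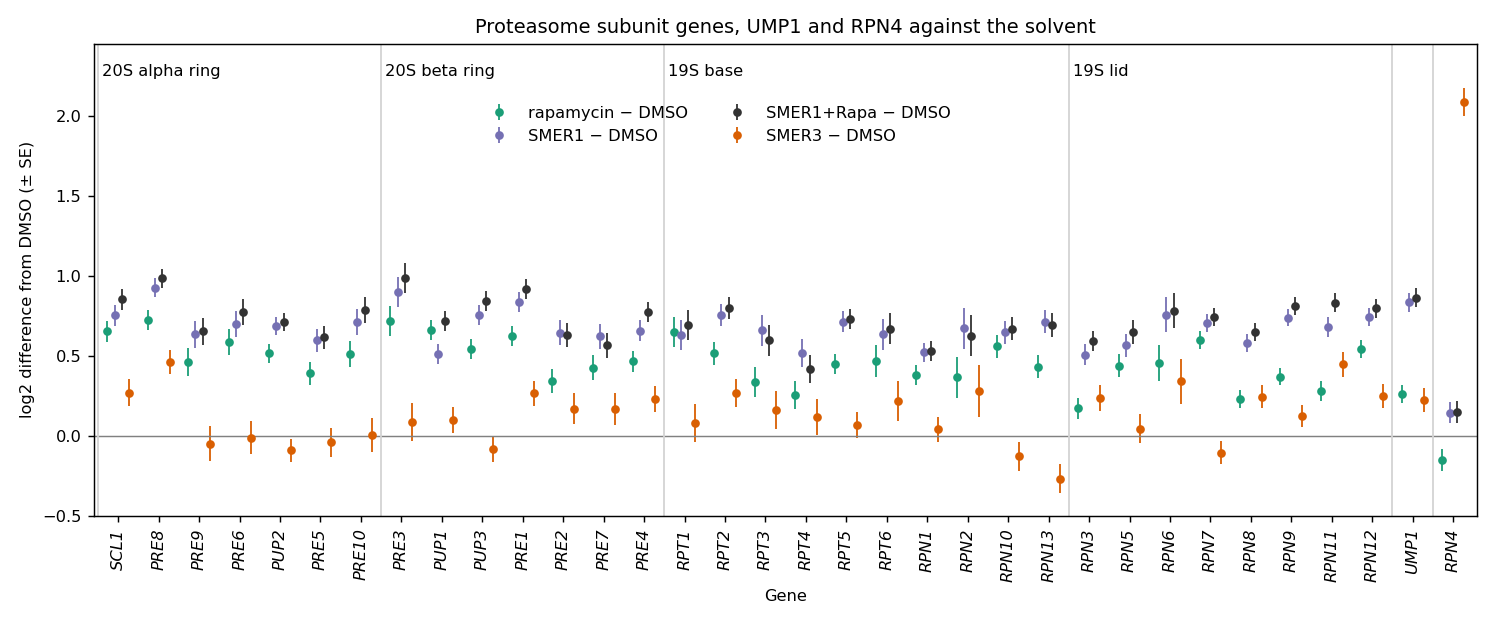
Log2 difference from DMSO (vertical axis, with the standard error of the limma fit) for the 34 genes, grouped by ring, base and lid, in 4 treatments at 100 nM rapamycin or 20 µM SMER. The SMER1 and combination points lie between 0.42 and 0.99 for the subunits, the rapamycin points between 0.17 and 0.72, and RPN4 alone lies at 2.09 with SMER3. After quantile normalisation RPN8, RPN3 and RPT4 fall below 0 with rapamycin.

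The core and the regulatory particle were compared with each other on every array. The median of the core genes minus the median of the regulatory particle genes, each relative to DMSO, was 0.09 and 0.16 on the rapamycin arrays and 0.08 and 0.10 on the combination arrays. It was 0.02 and 0.07 on the SMER1 arrays, -0.05 on the SMER3 array, -0.04 on the SMER2 array, and -0.01 on both the SMER4 and SMER5 arrays. The DMSO arrays lay between -0.01 and 0.02. The difference on the group means was 0.09 with rapamycin, 0.03 with SMER1 and 0.09 with the combination. These are descriptions of chosen lists, for which no p is given, and the spread of the measure between replicate arrays was 0.03 (pooled SD).

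**Figure D3:**
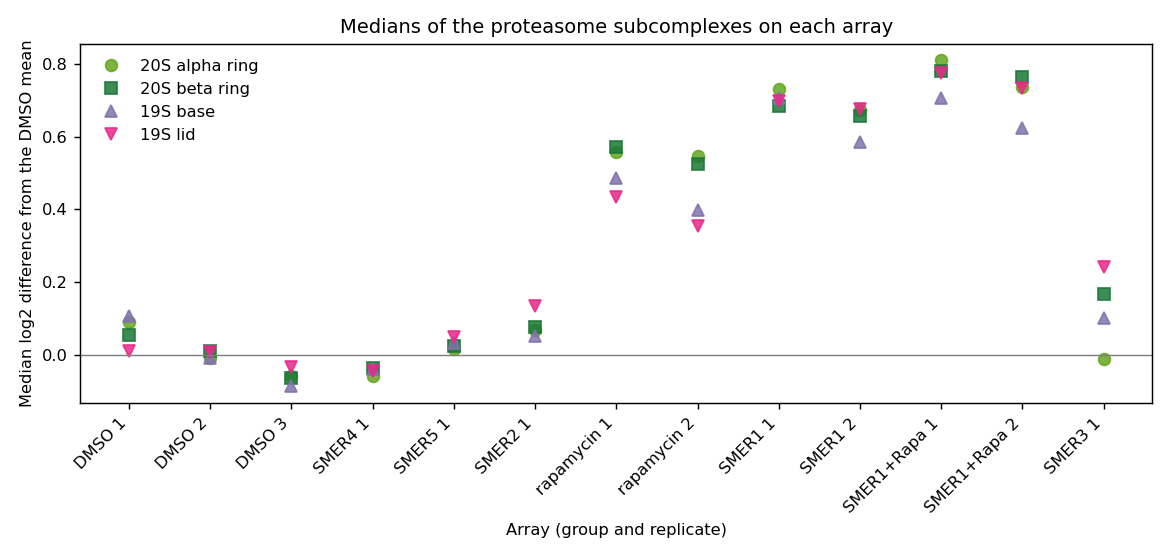
Median log2 difference from the DMSO mean (vertical axis) of the alpha ring, beta ring, base and lid genes on each of the 13 arrays. On both rapamycin arrays the 2 rings of the core (0.52 to 0.57) lie above the base and lid (0.35 to 0.49), while the SMER3 array has the lid highest (0.24) and the alpha ring lowest (-0.01).

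SMER1 added to rapamycin raised UMP1, RPN4 and a part of the subunit genes. The combination was called higher than rapamycin for 18 members, where 18.1% of all genes were called higher: 8 core genes, 3 base genes, 5 lid genes, UMP1 and RPN4. No member was called lower, where 28.2% of all genes were. The median log2 difference of the subunits was 0.26, against -0.08 over all genes, and the lid median was 0.37.

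UMP1 read 12.35 and 12.38 with rapamycin and 12.96 and 12.97 with the combination, a log2 difference of 0.60 ± 0.06 (limma adjusted p = 0.000411). RPN11 read 12.46 and 12.39 with rapamycin and 12.99 and 12.96 with the combination, a difference of 0.55 ± 0.07 (limma adjusted p = 0.000726). The arrays of the 2 groups do not overlap for either gene, but the share of all genes without overlap was not counted for this comparison. RPN9, RPN3 and RPN8, all of the lid, followed at 0.44 ± 0.06, 0.42 ± 0.07 and 0.42 ± 0.06. At the other end RPT1 (0.04 ± 0.10) and PUP1 (0.06 ± 0.07) overlapped between the groups.

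Only UMP1, RPN3, RPN8, RPN9 and RPN11 remained called in all 15 alternative settings. Without any single combination or rapamycin array, fewer members and fewer of all genes were called higher. The subunit median then ran from 0.20 to 0.28, against -0.09 to -0.08 over all genes. The count of 18 rose to 31 after quantile normalisation, when 22.4% of all genes were called higher.

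The converse comparison called no member. Between the combination and SMER1 alone, limma called 0 of 34 members either way, where 4.96% of all genes were called higher and 11.7% lower. Only PUP1 was under an unadjusted limma p of 0.05, where 1573 of all 5449 genes were. PUP1 read 12.97 and 12.96 with SMER1 and 13.14 and 13.20 with the combination, a log2 difference of 0.21 ± 0.07. The differences ran from -0.10 for RPT4 to 0.21 for PUP1. Of the 15 alternative settings, 14 also called 0 members and 1, with replicate number as a block, called 1. Over all genes the split of calls was 270 higher and 636 lower, and 475 higher and 637 lower after quantile normalisation.

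The single treatments were also compared directly. With SMER1, 15 members were higher than with rapamycin, where 17.1% of all genes were, and none lower, where 19.7% were: 13 subunit genes, UMP1 and RPN4. UMP1 led at 0.57 ± 0.06 (limma adjusted p = 0.000566), followed by RPN11 at 0.40 ± 0.07, RPN9 at 0.37 ± 0.06 and RPN8 at 0.35 ± 0.06, and these 4 were the members called in all 15 alternative settings. PUP1 had the lowest value, -0.15 ± 0.07, which did not pass the test (limma adjusted p = 0.127).

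The count of 15 in the direct comparison was 9 without DMSO replicate 2, 4 and 5 without SMER1 replicate 1 or 2, 9 without either combination array, and 5 and 4 without rapamycin replicate 1 or 2. With a SMER1 or rapamycin array left out, the share of members called higher was near that of all genes. With only the SMER1 and rapamycin arrays in the fit the count was 4, where 597 of all 5449 genes were called higher. The count was 26 after quantile normalisation, when 19.6% of all genes were called higher. The sign was positive for 32 of the 34 members on the deposited scale, and for 2677 of all 5449 genes.

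The interaction asks whether SMER1 made the same difference with rapamycin present as without it. It was called negative for 23 subunit genes, meaning a smaller difference in the presence of rapamycin, where 21.3% of all genes were called negative, and positive for none of the 34, where 4.42% of all genes were. These were 13 of 14 core genes, 6 of 10 base genes and 4 of 8 lid genes. The subunit median was -0.44 against -0.18 over all genes. For PRE8, the difference made by SMER1 was 0.93 without and 0.26 with rapamycin, an interaction of -0.67 ± 0.09 (limma adjusted p = 0.0023).

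RPN3 and RPN11 had the smallest interactions among the subunits, -0.09 ± 0.10 and -0.13 ± 0.09, and UMP1 had -0.23 ± 0.09 (limma adjusted p = 0.0908). Nearly all of these interaction calls were lost after quantile normalisation, when PRE8 alone was called (-0.35), where 13.4% of all genes were called negative, and the subunit median was -0.11 against -0.00 over all genes. The split of all calls moved from 241 positive and 1160 negative to 562 positive and 732 negative. Without any single SMER1, combination or rapamycin array, fewer members and fewer of all genes were called negative. The subunit median then ran from -0.48 to -0.40, against -0.20 to -0.17 over all genes.

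**Figure D4:**
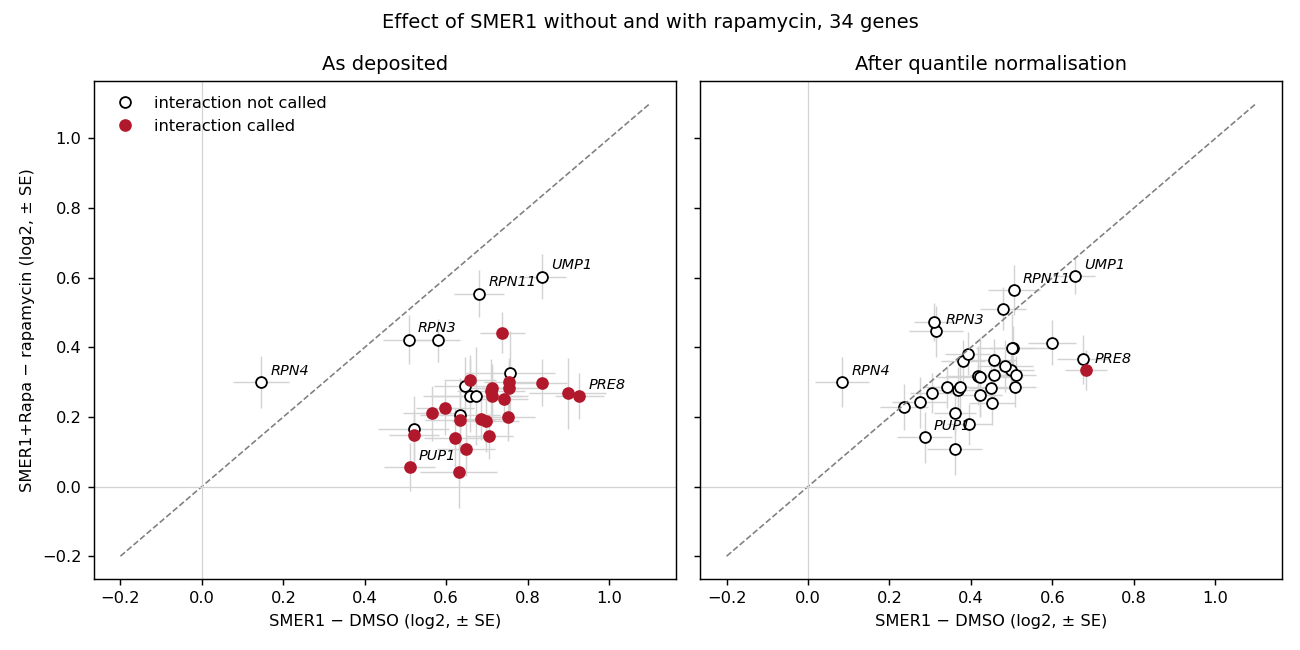
Log2 difference made by SMER1 alone (horizontal axis, SMER1 minus DMSO) and on top of rapamycin (vertical axis, combination minus rapamycin) for the 34 genes, with standard errors. The left panel has the deposited values and the right panel the values after quantile normalisation. Filled points are genes whose interaction was called, 23 on the left and PRE8 alone on the right. Of all genes, 21.3% were called negative on the deposited scale and 13.4% after quantile normalisation. The dashed line marks equal effects.

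With SMER3, RPN4 had by far the largest difference of the members, and few subunit genes changed. Against DMSO, 8 members were called higher, which is 23.5% of them, where 21.6% of all genes were called higher, and none was called lower, where 14.8% of all genes were. Besides RPN4 these were PRE8 (0.46 ± 0.08), RPN11 (0.45 ± 0.08), SCL1 (0.27 ± 0.08), PRE1 (0.27 ± 0.08), RPT2 (0.27 ± 0.09), RPN12 (0.25 ± 0.07) and RPN8 (0.24 ± 0.07). The subunit median was 0.12, against 0.02 over all genes. The share of members called is thus near that of all genes. It fell below that of all genes when any replicated array except DMSO replicate 1 was left out.

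PRE8 read 13.05 on the SMER3 array and 12.55 to 12.62 with DMSO (limma adjusted p = 0.00279). RPN11 read 12.59 on the SMER3 array and 12.10 to 12.20 with DMSO (limma adjusted p = 0.00363). RPN13 lay the other way, at 12.37 against 12.59 to 12.72, a log2 difference of -0.27 ± 0.09 that did not pass the test (limma adjusted p = 0.0558). UMP1 read 12.33 against 12.05 to 12.15, a difference of 0.22 ± 0.07 that did not pass either (limma adjusted p = 0.0515).

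PRE8, RPN11 and RPN4 were the members called against DMSO in all 15 alternative settings of the SMER3 comparison. The count of 8 was 3 without DMSO replicate 2 or 3, 4 without either SMER1 array, 3 without either combination array and 5 without either rapamycin array. After quantile normalisation 4 members were called higher, where 18.6% of all genes were, and RPN13 (-0.38) and RPN10 (-0.24) were called lower, where 23.5% were. The split of all calls moved from 1177 higher and 806 lower to 1016 higher and 1283 lower.

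At the matched dose of 20 µM and time of 30 min, SMER3 and SMER1 differed in opposite directions for RPN4 and for the subunits. RPN4 was called higher with SMER3, where 20.6% of all genes were, and 29 subunit genes and UMP1 were called lower, where 26.1% of all genes were. After quantile normalisation the subunit median was -0.34, with -0.44 for the core, -0.33 for the base and -0.29 for the lid, against -0.02 over all genes. On the deposited scale the subunit median was -0.50, with -0.60 for the core, -0.49 for the base and -0.46 for the lid, against -0.03 over all genes.

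RPN13 had the largest of these log2 differences, -0.98 ± 0.10 (limma adjusted p = 0.00029), with 12.37 on the SMER3 array and 13.40 and 13.30 with SMER1. The beta ring gene PUP3 followed at -0.84 ± 0.08. RPN11 (-0.23 ± 0.08, limma adjusted p = 0.0519), RPN6 (-0.42 ± 0.15, 0.0516) and RPN2 (-0.39 ± 0.17, 0.101) did not pass the test. UMP1 differed by -0.61 ± 0.08 (limma adjusted p = 0.000856). With only the SMER3 and SMER1 arrays in the fit, the count fell from 31 to 16 members, 15 of them lower. Of all 5449 genes, 945 were then called lower and 814 higher.

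No member was called with SMER2, SMER4 or SMER5. With SMER2, limma called 0 of 34 members, where 0.0918% of all genes were called higher and 0.22% lower. Under an unadjusted limma p of 0.05 were 5 members, where 476 of all 5449 genes were. The log2 differences ran from -0.02 for PUP3 to 0.23 for the ATPase gene RPT5, with a subunit median of 0.075 (all genes -0.025). Over all genes, 5 were called higher and 12 lower with SMER2, and 5 higher and 6 lower after quantile normalisation.

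With SMER4, 0 of 34 members were called by limma, where 0% of all genes were called. Under an unadjusted limma p of 0.05 were 0 members, where 78 of all 5449 genes were. The log2 differences ran from -0.12 for RPT3 to 0.10 for PUP1. With SMER5, 0 of 34 were called, where 0% of all genes were called. Again 0 members were under an unadjusted limma p of 0.05, where 211 of all 5449 genes were. The differences ran from -0.07 for RPN5 to 0.14 for PUP1. Each of these 3 groups is 1 array, and limma called 0 members in all 15 alternative settings of each of them.

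The other genes of the pathway were taken from fixed lists, whose counts stand beside those of all genes. Of all genes, 39.7% were called higher and 20.4% lower with rapamycin, 36.5% and 25% with SMER1, 39.6% and 31.2% with the combination, and 21.6% and 14.8% with SMER3. Among 15 genes for assembly chaperones and other proteins of or bound to the proteasome, SEM1 included, 11 were called higher and 1 lower with rapamycin. The counts were 13 and 1 with SMER1, 13 and 1 with the combination, and 5 and 1 with SMER3. TMA17, which encodes a stress-induced chaperone of base assembly, read 10.10, 10.51 and 10.50 with DMSO, 11.94 and 12.06 with rapamycin, and 12.56 and 12.82 with SMER1. It was 12.89 and 12.93 with the combination and 11.36 with SMER3. The log2 difference from DMSO was 1.63 ± 0.14 with rapamycin, 2.32 ± 0.14 with SMER1, 2.54 ± 0.14 with the combination and 0.99 ± 0.18 with SMER3 (limma adjusted p = 5.36e-05, 1.03e-05, 3.02e-06 and 0.00424).

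POC4, which encodes a chaperone of alpha ring assembly, went the other way. It read 11.25, 11.23 and 11.22 with DMSO, 10.81 and 10.90 with rapamycin, 10.41 and 10.34 with SMER1, 9.75 and 9.64 with the combination and 10.83 with SMER3. Its log2 difference was -0.37 ± 0.06, -0.86 ± 0.06, -1.54 ± 0.06 and -0.40 ± 0.08 in that order of treatments, all called lower by limma (highest adjusted p = 0.00754). ECM29, whose product binds core and cap together, and HUL5, a proteasome-bound ubiquitin ligase gene, rose by 1.32 ± 0.18 and 1.14 ± 0.12 with SMER1. With SMER3 they differed by 0.01 ± 0.23 and 0.37 ± 0.15, neither of them called.

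Of 8 genes for ubiquitin, its activating enzyme and shuttle factors, 4 were called higher with rapamycin, 5 with SMER1, 5 higher and 1 lower with the combination, and 2 higher with SMER3. The shares with rapamycin and with SMER3 are near the 39.7% and 21.6% of all genes called higher. UBI4, the stress-induced polyubiquitin gene, read 11.95, 12.01 and 12.06 with DMSO and 13.06 to 13.92 on all rapamycin, SMER1, combination and SMER3 arrays. Its log2 difference was 1.72 ± 0.06 with rapamycin, 1.80 ± 0.06 with SMER1, 1.90 ± 0.06 with the combination and 1.05 ± 0.08 with SMER3. DDI1, a shuttle factor gene, rose in all 4 as well, by 0.72 ± 0.06, 1.17 ± 0.06, 1.29 ± 0.06 and 0.91 ± 0.08. DSK2, another shuttle factor gene, and UBA1, the activating enzyme gene, rose by 0.65 ± 0.06 and 0.53 ± 0.07 with SMER1, and differed by 0.03 ± 0.08 and -0.07 ± 0.09 with SMER3, not called.

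Of the 5 genes for Cdc48, the ATPase that extracts ubiquitinated proteins from complexes, and its cofactors, 4 were called higher with rapamycin, 4 with SMER1, 5 with the combination and 1 with SMER3, where 39.7%, 36.5%, 39.6% and 21.6% of all genes were. The SMER3 share is near that of all genes. The single gene with SMER3 was UFD1 (0.75 ± 0.09), which was 0.99 ± 0.07 with SMER1. NPL4, whose product forms a pair with Ufd1, rose by 1.00 ± 0.08 with SMER1 and differed by -0.07 ± 0.10 with SMER3. CDC48 rose by 0.50 ± 0.11 and SHP1, a further cofactor gene, by 0.75 ± 0.10 with SMER1.

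Of 9 genes for ubiquitin-conjugating enzymes, 5 were called higher and 1 lower with rapamycin, 6 and 1 with SMER1, 6 and 1 with the combination, and 3 and 1 with SMER3, where 39.7%, 36.5%, 39.6% and 21.6% of all genes were called higher in that order. UBC8 rose by 1.22 ± 0.08, 1.30 ± 0.08, 1.59 ± 0.08 and 1.27 ± 0.11 in that order, and UBC5, a stress-induced enzyme gene, by 0.90 ± 0.08, 1.47 ± 0.08, 1.59 ± 0.08 and 0.78 ± 0.10. UBC11 was the gene called lower each time, with -1.85 ± 0.14, -1.57 ± 0.14, -2.22 ± 0.14 and -1.30 ± 0.17. UBC13, whose product makes chains used in DNA repair, rose by 0.68 ± 0.07 with SMER1 and was not called with SMER3 (0.14 ± 0.09).

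The 7 regulators of RPN4 hold 4 transcription factors that act on its promoter and 3 genes for the degradation of its protein. With rapamycin 3 were called higher, with SMER1 5, with the combination 5, and with SMER3 3 higher and 1 lower. The share called higher with rapamycin is near the 39.7% of all genes, and the share called lower with SMER3 is near their 14.8%. UBR2, which encodes the ubiquitin ligase that marks Rpn4 for degradation, read 10.04, 9.84 and 9.83 with DMSO, 10.71 and 10.74 with rapamycin, 10.77 and 10.62 with SMER1 and 10.84 and 10.72 with the combination. It read 9.13 on the SMER3 array, below every other array. Its log2 difference from DMSO was 0.83 ± 0.09, 0.79 ± 0.09 and 0.88 ± 0.09 with rapamycin, SMER1 and the combination, and -0.77 ± 0.11 with SMER3 (limma adjusted p = 0.00169).

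Of the transcription factor genes, YAP1 rose by 0.73 ± 0.08 with SMER1, 0.78 ± 0.08 with the combination and 0.74 ± 0.10 with SMER3, and was not called with rapamycin (0.15 ± 0.08). HSF1 rose by 0.34 ± 0.09, 0.63 ± 0.09, 0.76 ± 0.09 and 0.62 ± 0.11 with rapamycin, SMER1, the combination and SMER3. PDR3 rose by 0.84 ± 0.14 with SMER3 (limma adjusted p = 0.00291) and was not called in the other 3 comparisons. PDR1 rose with rapamycin (0.37 ± 0.11), SMER1 (0.53 ± 0.11) and the combination (0.65 ± 0.11) and was not called with SMER3 (0.16 ± 0.14).

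MUB1, whose product works with Ubr2, rose by 0.39 ± 0.08 with SMER1 and 0.38 ± 0.08 with the combination. RAD6, the conjugating enzyme gene of the same step, was called in none of the 4 comparisons, with values from -0.24 ± 0.16 to 0.13 ± 0.20. The calls of the regulators with rapamycin were the least settled: without rapamycin replicate 1 only 1 of the 3 was left.

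**Figure D5:**
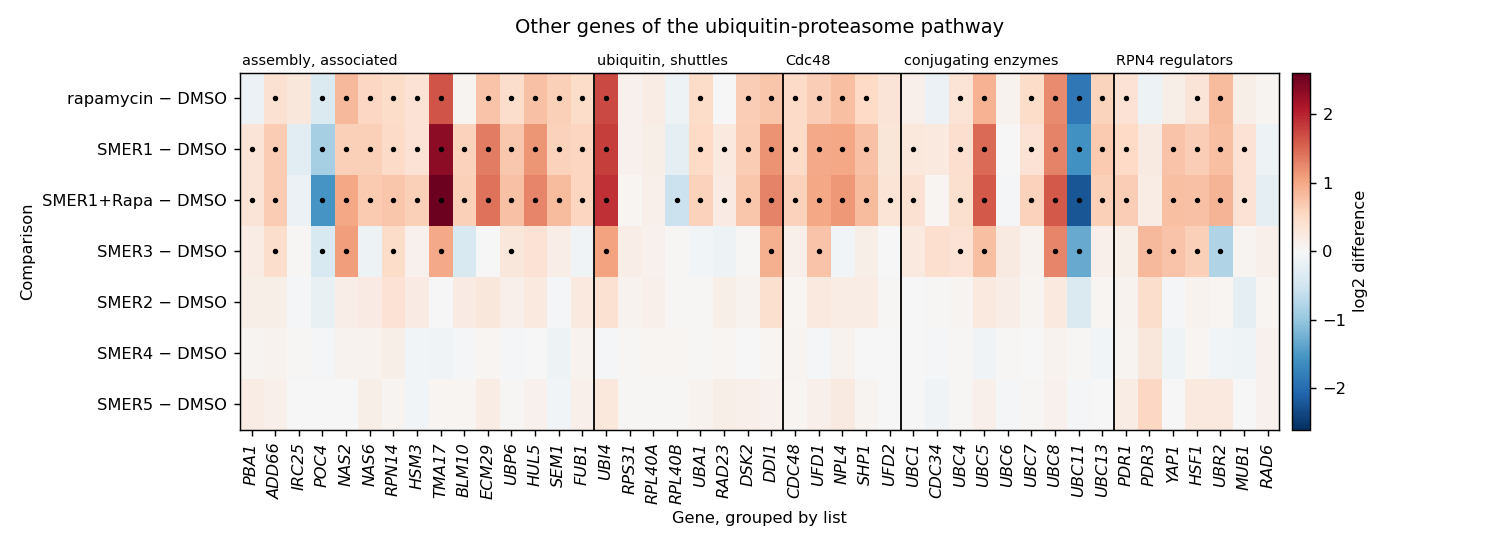
Log2 difference from DMSO (colour scale) of the other genes of the ubiquitin-proteasome pathway, by list, for each treatment (rows), with a dot where limma's adjusted p was under 0.05. UBR2 has a positive difference with rapamycin, SMER1 and the combination (0.79 to 0.88) and a called negative difference with SMER3 (-0.77), and the SMER2, SMER4 and SMER5 rows hold no dot.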

How the data were processed

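RNA for the 13 arrays was isolated with the RiboPure-Yeast kit, checked on a Bioanalyzer and turned into biotin-labelled cRNA, per the labels' protocols. The deposited table holds log2 signals of 5716 probe sets, a scale judged from the values (0 to 14.67), and the authors' background correction, summarisation and normalisation are not given in the sources used here. Probe sets were named through the platform's gene table (5498 with 1 name, 218 without, 12 symbols updated from RefSeq R64), and the brightest probe set was kept for the 47 genes with more than 1, which left 5449 genes. None of the 34 members has a probe set marked as shared between transcripts.

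The log2 values were used as deposited. One mean per group was fitted to all 13 arrays with limma 3.58.1 in R 4.3.3 (5 residual and 2.36 prior degrees of freedom), with Benjamini-Hochberg adjustment over all 5449 genes. The fit was tested on simulated data. Comparisons with DMSO share its 3 arrays. Precision is limited by how few arrays there are, and lone arrays are assumed to vary like the replicated groups. The alternatives were quantile normalisation, leaving out the dimmest 25% of genes, the mean of probe sets, an intensity trend, a replicate block, only the groups compared, and each of 9 replicated arrays left out in turn. Calls kept in all settings were counted for the members only, not for all genes. The members and gene lists were chosen with earlier results of these data known. Of each other pathway list, up to 4 genes are named, those with the largest absolute log2 difference among genes called in a replicated comparison with DMSO, and all 7 regulators of RPN4 may be named. Promoter and protein sequences were not used here.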

Additional observations from a re-analysis of the deposited data

Results flagged for a closer look

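The interaction term of the limma fit was called negative for 23 proteasome subunit genes, where 21.3% of all genes were. For these 23 the difference that SMER1 made was smaller with rapamycin present than without it. In the alpha ring the interaction was -0.67 for PRE8, -0.55 for SCL1, -0.51 for PRE6, -0.49 for PUP2, -0.44 for PRE9, -0.43 for PRE10 and -0.37 for PRE5 on the log2 scale. In the beta ring it was -0.63 for PRE3, -0.54 for PRE1, -0.48 for PRE7, -0.46 for PUP1, -0.46 for PUP3 and -0.35 for PRE4. In the base it was -0.59 for RPT1, -0.54 for RPN10, -0.47 for RPT2, -0.45 for RPN13, -0.43 for RPT5 and -0.37 for RPN1. In the lid it was -0.56 for RPN7, -0.49 for RPN12, -0.36 for RPN5 and -0.30 for RPN9. The 90th percentile of all genes also moved, from 12.78 to 12.92 with DMSO to 13.05 to 13.16 in the 3 other replicated groups, and its part in these values was not tested. After quantile normalisation PRE8 alone was called, at -0.35, where 13.4% of all genes were called negative.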

How the results depend on the processing

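The 33 members called with SMER1 and with the combination against DMSO were called in all 15 alternative settings. With rapamycin against DMSO, quantile normalisation kept 17 of the 32 calls and added RPN4, called lower. Leaving out single arrays moved the count less, and the subunit median then ran from 0.43 to 0.52. Under quantile normalisation RPT4 (-0.0147), RPN8 (-0.0629) and RPN3 (-0.037) changed sign with rapamycin, as did RPN9 (0.0332), RPN3 (0.13), RPN8 (0.16) and RPN11 (0.06) in the interaction, and none of these was then called. With the replicate block, ECM29, which differed by 0.01 with SMER3, was called at -0.23. For the combination against rapamycin, the count of 18 became 31 after quantile normalisation, 30 with the replicate block, 11 with only the groups compared and 7 to 21 without single arrays. For SMER1 against rapamycin, 15 became 26 after quantile normalisation, 27 with the replicate block (26 higher, and PUP1 lower at -0.15), 4 with only the groups compared and 4 to 15 without single arrays. For the interaction, 23 became 1 after quantile normalisation and 9 to 27 without single arrays. For SMER3 against DMSO, 8 became 3 with only the groups compared and 3 to 9 without single arrays. For SMER3 against SMER1, 31 became 16 with only the groups compared, and single arrays left out gave 27 to 32. For the combination against SMER1, 0 became 1 with the replicate block. The core median minus that of the regulatory particle with rapamycin was 0.13 with the replicate block and 0.0878 to 0.16 without single arrays, and with SMER1 it was 0.016 to 0.0663 without single arrays. Over single members and comparisons, 5548 values kept sign and call, 339 kept the sign and lost the call, and 110 kept the sign and gained it. The sign changed for 123, of which 120 were called on neither side. Over all genes, the replicate block moved the calls from 906 to 1804 for the combination against SMER1, from 2006 to 3057 for SMER1 against rapamycin, from 1401 to 2377 for the interaction, from 17 to 513 for SMER2 and from 0 to 82 for SMER5. Without single arrays these counts fell to as few as 445, 1244, 816 and 2 for the first 4, and the combination against rapamycin fell from 2527 to 1643 without combination replicate 2. SMER2 had 11 calls after quantile normalisation and 2 with only the groups compared, and SMER4 and SMER5 had at most 1 call in settings without the block. The causes of these changes were not tested.

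The labels number the replicates alike across groups. Deviations of same-numbered arrays from their group means correlated at 0.07 to 0.60, all positive. Pairs among rapamycin, SMER1 and the combination lay at 0.44 to 0.60, equal for both replicate numbers by construction. Pairs with DMSO replicate 1 lay at 0.43 to 0.55, and those with DMSO replicate 2 at 0.07 to 0.13. The labels name no shared batch, and the main fit did not pair the arrays by number. Whether same-numbered arrays share a batch was not tested, and the replicate block stands as an alternative. The alternatives for the other pathway genes were added after seeing the data. The planned search for the Rpn4 promoter element was not run.

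The limits are few arrays, 1 array each for SMER2 to SMER5, an unstated array normalisation and replicates of unstated origin.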

Other observations

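Among all other genes, those whose 8 group means most resembled the mean profile of the 32 subunit genes were DAK1, a dihydroxyacetone kinase gene (Pearson r = 0.998), and PSK1, a PAS domain kinase gene, TVP15, SDH6, ATP19, SHP1, COQ4, PAI3, LAP2 and RAD2, with r down to 0.995. For RPN4 they were ERO1, which encodes the oxidase of disulfide formation in the endoplasmic reticulum (r = 0.994), CTH1, PRP46, CUR1, AEP3, MAK32, YOR385W, DON1, PAU24 and BTN2, with r down to 0.982. BTN2 and CUR1 encode factors that sort misfolded proteins. These are descriptions over 8 group means that share arrays and scale with the members, 4 of the groups are 1 array each, and the RPN4 profile has its one large value on the lone SMER3 array.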
